A study of Mus musculus with 8 samples.

Results

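Polyamine metabolism was examined in the renal cortex through 10 genes chosen by symbol, namely Odc1, Amd1, Srm, Sms, Oaz1, Oaz2, Azin1, Sat1, Smox and Paox, out of 22609 genes in the count tables. RNA-Seq had been performed on the kidney cortex of 4 aged (30 months) and 4 young (5 months) male C57BL6 mice, untreated, with 1 library per mouse. Read pairs counted on genes numbered 14820804 to 19018543 in the aged mice and 15152597 to 19821429 in the young mice. Of the 10 genes, 8 had enough counts to be tested, and 13944 genes were tested in all. The set was proposed with the comparison of aged and young mice already known, since Azin1 stood among the lower genes with the smallest p, so for these 10 genes that comparison is a description. Their p-values are left out, and a call is mentioned only beside the share of all genes called or to show where it rests on 1 mouse or tool. The ages are those of the sample labels, and the methods for the RNA-Seq give a somewhat higher mean age for the aged mice.

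Putrescine, spermidine and spermine are small polycations that bind RNA and are needed for translation and growth. Ornithine decarboxylase (Odc1) makes putrescine from ornithine, S-adenosylmethionine decarboxylase (Amd1) supplies the aminopropyl donor, and spermidine synthase (Srm) and spermine synthase (Sms) extend the chain. Antizymes (Oaz1, Oaz2) bind ornithine decarboxylase and send it to the proteasome, and antizyme inhibitor 1 (Azin1), a relative of ornithine decarboxylase without enzyme activity, binds antizyme in its place. Spermidine/spermine acetyltransferase (Sat1), polyamine oxidase (Paox) and spermine oxidase (Smox) run the pathway backwards. In the mouse kidney Odc1 is abundant in the proximal tubule and is known to be induced by androgen.

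The transcripts of this family are copied widely in the mouse genome, and the copies bear on which genes could be counted. The mm9 sequences that matter most are shown, each written 5′ to 3′ on the strand of the gene. The first is a coding stretch of 60 nt around the antizyme frameshift site, where the ribosome shifts frame at the stop codon when polyamines are plentiful, with TCCTGA in capitals. It is shown because Oaz1 has a copy on chromosome 17 that matches it there at 60 of 60 positions, whereas Oaz2 matches Oaz1 at 49 of 60.
Oaz1, chr10:80291010-80291069 (+): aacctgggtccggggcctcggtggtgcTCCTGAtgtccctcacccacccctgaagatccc
Oaz1 copy, chr17:17482871-17482930 (−): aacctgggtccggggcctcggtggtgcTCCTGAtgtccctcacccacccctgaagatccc
Oaz2, chr9:65534049-65534108 (+): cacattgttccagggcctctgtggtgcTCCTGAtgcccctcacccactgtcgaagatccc

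The second is the coding stretch in which Amd1 and its copy Amd2 were least alike among those tried, with the base that differs in capitals. They matched at 59 of 60 positions.
Amd1, chr10:40009988-40010047 (−): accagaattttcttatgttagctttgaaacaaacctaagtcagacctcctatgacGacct
Amd2, chr10:35430566-35430625 (−): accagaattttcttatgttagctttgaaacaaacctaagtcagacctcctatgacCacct

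The third is the most alike coding stretch of Odc1 and Azin1, with differing bases in capitals. It is shown because it sets the limit of confusion between these homologs.
Odc1, chr12:17556302-17556361 (+): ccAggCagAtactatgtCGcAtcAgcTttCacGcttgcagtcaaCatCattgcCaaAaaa
Azin1, chr15:38423260-38423319 (−): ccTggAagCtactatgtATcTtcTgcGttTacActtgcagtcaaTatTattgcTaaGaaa
Even here they matched at only 46 of 60 positions. Their coding sequences, of 1386 nt and 1347 nt, were identical at 61.3% of 1335 aligned positions, and the longest run they shared was 17 nt.

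Windows of 100 nt were moved along the longest transcript of each gene, and each was scored by whether it fell within a copy in mm9 that was 98% or more identical. The share of such windows was 99.8% for Amd1, whose copy Amd2 lies on the same chromosome, and 96.6% for Oaz1. It was 86.5% for Paox, which has a copy on chromosome 1 with 99.8% identity over 1540 nt, and 41.9% for Sms, with a copy on chromosome X. Odc1 had 1.72%, and Azin1, Oaz2, Srm, Sat1 and Smox had 0%, a share that leaves out less alike copies. Odc1 had copies of 96.1% identity over 2465 nt on chromosome X and 96.5% over 2039 nt on chromosome 5. Oaz2 had a copy of 97.96% over 1815 nt on chromosome 3, and Sat1 a copy of 97.3% over 513 nt on chromosome 5. The genes with the highest shares had almost no counts. Amd1 had 1 count in aged mouse 4 and 0 in the other libraries, and Amd2 had 0 in all 8. Oaz1 had 2 counts in young mouse 1, 1 count each in young mouse 2 and aged mouse 3, and 0 elsewhere. These rows were not read as levels of expression. Alignments to several places, 34.3% to 39.1% of all counts listed for a library, are kept apart from the gene counts, and their part in these values was not tested. Counts of Paox and Sms are uncertain, because reads may be shared with the copies. The part of the less alike copies in the counts of Odc1, Oaz2 and Sat1 was not tested.

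**Figure D1:**
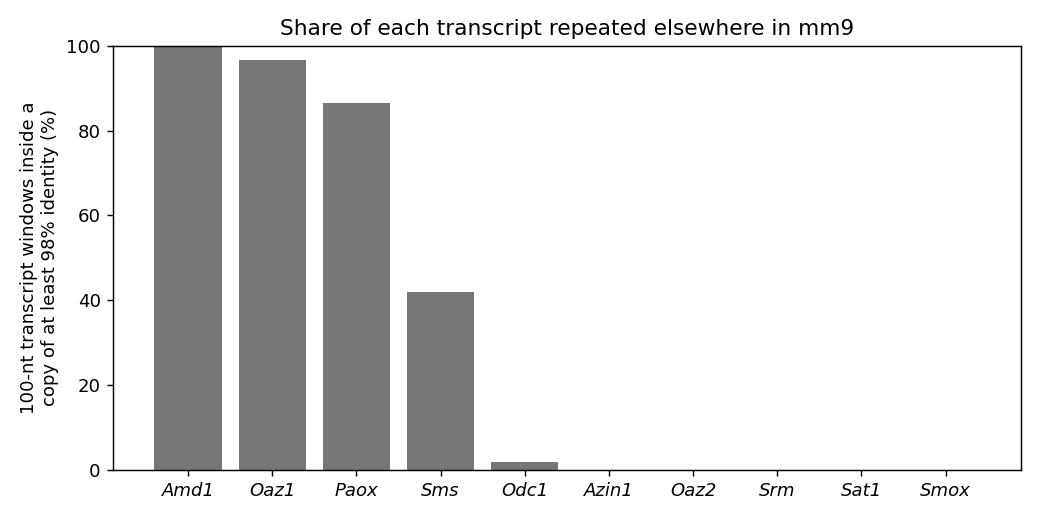
Bars give the share of 100-nt windows of each gene's longest transcript (%) that fall within another mm9 locus with 98% or more identity. Amd1 (99.8%) and Oaz1 (96.6%) are almost wholly repeated, Paox (86.5%) and Sms (41.9%) in part, and Azin1 not at all.

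No row carried the symbol Oaz2. A row named Oaz2-ps was used, which is an older symbol of Oaz2 on chromosome 9 and also the present symbol of a pseudogene on chromosome 3. A stretch of chromosome 3 in mm9 matched Oaz2 at 97.96% over 1815 nt. Which of them was counted is not settled by the tables, so the row is called Oaz2-ps throughout.

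Azin1 lies on chromosome 15 (mm9, chr15:38417185-38449021, minus strand, 12 exons in the longest transcript). It was lower in every aged mouse than in any young mouse. After TMM normalization, in CPM (counts scaled to a common library size), it stood at 127, 147, 145 and 156 in aged mice 1 to 4 and at 230, 222, 234 and 230 in young mice 1 to 4. The groups did not overlap, and the lowest young value exceeded the highest aged value by more than the whole range of either group. The means were 144 ± 12.03 (SD, n = 4) and 229 ± 5.13 CPM (SD, n = 4), and the log2 fold change was -0.67 ± 0.08 (SE). The counts behind these values numbered 2255 to 2864 in aged and 3443 to 4196 in young mice. Azin1 was the 1 member of 8 tested (12.5%) that was called in edgeR (fold over 1.5, adjusted p under 0.05). Over all genes 2.06% were called, 0.889% as lower and 1.17% as higher in aged mice, and since this comparison chose Azin1 nothing is read from the difference. The call was lost when young mouse 1, 3 or 4 was left out, with log2 fold changes of -0.67, -0.66 and -0.67. In those refits 8, 14 and 12 genes were called over all genes, against 287 with all 8 libraries. The Azin1 call was also lost when libraries were scaled by total counts alone (-0.56). Under that scaling the median over all genes shifted from 0.03 to 0.14 in log2 fold change.

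Odc1 (mm9, chr12:17551679-17558308, plus strand), the enzyme that Azin1 protects from antizyme, had the most variable values of the set. It stood at 93.5, 190, 149 and 372 CPM in aged mice 1 to 4 and at 967, 1147, 459 and 258 CPM in young mice 1 to 4. The groups overlapped, because aged mouse 4 lay above young mouse 4. Aged mice averaged 201 ± 121 CPM and young mice 708 ± 418 CPM (SD, n = 4 each), a log2 fold change of -1.81 ± 0.54 (SE), and it was not called. Without aged mouse 4 it was -2.30 and Odc1 was called, and without young mouse 2 it was -1.48 and it was not. DESeq2 on all 8 libraries also called it.

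The other synthesis enzymes differed from each other. Srm, which makes spermidine, stood at 10.8, 10.6, 16.5 and 10.7 CPM in aged mice 1 to 4 and at 17.7, 17.8, 16.8 and 17.4 CPM in young mice 1 to 4. The groups did not overlap, but aged mouse 3 lay almost at the young level and far from the other aged mice. The log2 fold change was -0.52 ± 0.15 (SE), and without aged mouse 3 it was -0.70, at which Srm was called. Sms, which makes spermine, ranged from 11.4 to 23.5 CPM in aged and from 16.8 to 21.5 CPM in young mice, with a log2 fold change of -0.02 ± 0.20 (SE).

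The row Oaz2-ps may hold counts of the antizyme gene Oaz2 or of the pseudogene. It stood at 39.3, 60.3, 53.2 and 65.9 CPM in aged mice 1 to 4 and at 70.8, 71.6, 66.1 and 74.7 CPM in young mice 1 to 4. The groups did not overlap, though aged mouse 4 and young mouse 3 almost met. The log2 fold change was -0.37 ± 0.14 (SE) and was -0.24 without aged mouse 1. Since Azin1 and antizyme bind each other, the counts of Azin1 per count of Oaz2-ps were also taken, averaging 2.69 ± 0.395 for aged and 3.24 ± 0.213 for young mice (SD, n = 4 each). These ratios overlapped, with 2.37 to 3.23 in aged and 3.08 to 3.54 in young mice. Odc1 per Azin1 had a mean of 1.36 ± 0.720 in aged and 3.11 ± 1.89 in young mice (SD, n = 4 each), and Odc1 per Oaz2-ps 3.49 ± 1.47 and 10.02 ± 5.83, with overlapping ranges in both. With the gene behind Oaz2-ps unsettled and Oaz1 almost without counts, the balance of inhibitor and antizyme was not measured. The ratios that hold Azin1 also hold the comparison that chose it.

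The catabolic genes had log2 fold changes above 0 in edgeR on all 8 libraries, and none was called there. Sat1, the acetyltransferase, ranged from 123 to 140 CPM in aged and from 110 to 139 CPM in young mice, with a log2 fold change of 0.12 ± 0.09 (SE). Smox ranged from 4.88 to 7.22 CPM in aged and from 4.97 to 6.56 CPM in young mice, with a log2 fold change of 0.04 ± 0.17 (SE). Its sign changed in 2 of 14 alternatives, to -0.06 without aged mouse 3 at the lowest. Paox stood at 4.57, 3.71, 3.53 and 4.03 CPM in aged mice 1 to 4 and at 3.27, 2.01, 2.31 and 2.42 CPM in young mice 1 to 4. The groups did not overlap, and the log2 fold change was 0.66 ± 0.20 (SE), on 34 to 93 counts per library. Paox was called by DESeq2 and not by edgeR, and its copy on chromosome 1 leaves the source of these reads uncertain. In all, 4 of the 8 genes tested did not overlap between groups (Azin1, Srm, Oaz2-ps and Paox), beside 18.9% of all genes. The median log2 fold change of the 8 genes was -0.20, and that of all genes was 0.03.

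**Figure D2:**
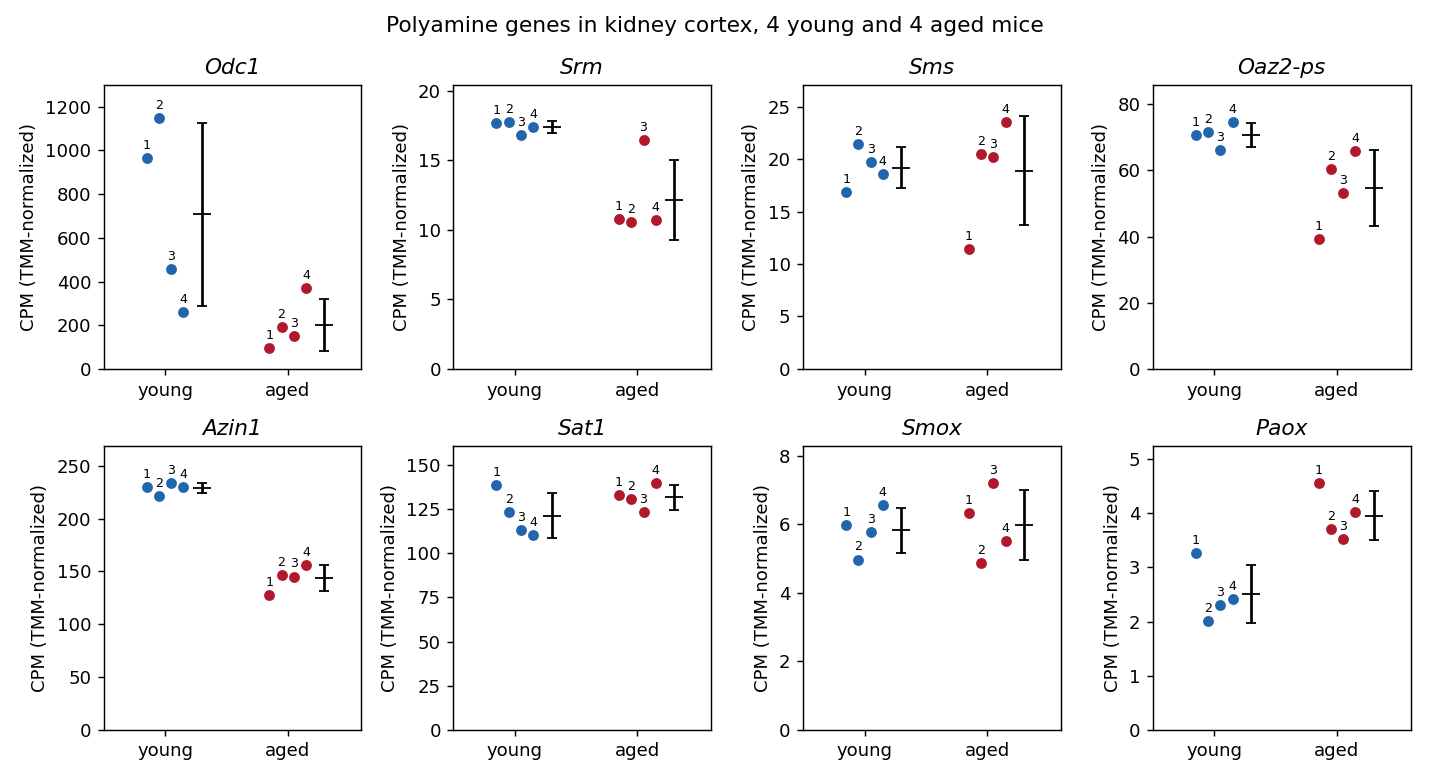
Each panel plots TMM-normalized CPM of 1 gene on an axis from 0, with a point per mouse labelled by its number and the mean ± SD (n = 4) as a bar to the right. Azin1 separates aged mice (127 to 156) from young mice (222 to 234), whereas Odc1 overlaps through aged mouse 4 (372) and young mouse 4 (258).

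The spread between mice of 1 group was small for Azin1 and wide for Odc1. A small spread is part of what gives a small p, by which Azin1 was chosen, so its spread is a description too. The SD of log2 CPM was compared with that of the 500 genes nearest in mean level. For Azin1 it was 0.03 in young mice, at percentile 10.2, and 0.12 in aged mice, at percentile 27.2. For Odc1 it was 1.00 in young mice, at percentile 99.8, and 0.83 in aged mice, at percentile 96.0. Odc1 varied 4.44-fold among young mice and 3.98-fold among aged mice. Srm was at percentile 2.00 in young and 67.6 in aged mice, and Sat1 at percentile 87.0 in young and 9.60 in aged mice.

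Levels were compared between genes per kilobase of exon (RPKM on TMM-scaled libraries). Odc1 was the highest, at 79.0 ± 47.3 RPKM in aged and 278 ± 164 RPKM in young mice (SD, n = 4 each), and ranked 194 among the 13655 genes with a length. Sat1 followed at 47.5 ± 2.49 and 43.8 ± 4.598 RPKM, within the range of Odc1 in aged mice and below it in young mice. Azin1 had 23.1 ± 1.93 RPKM in aged and 36.8 ± 0.823 RPKM in young mice, below Sat1 in every library. Oaz2-ps, taken at the length of the gene on chromosome 9, had 18.3 ± 3.83 and 23.7 ± 1.18 RPKM, overlapping Azin1 in aged mice and not in young mice. Srm had 7.59 ± 1.803 and 10.9 ± 0.276 RPKM and Sms 3.15 ± 0.870 and 3.19 ± 0.324 RPKM, with no overlap between them. Paox (2.24 ± 0.258 and 1.42 ± 0.305 RPKM) and Smox (1.54 ± 0.261 and 1.495 ± 0.168 RPKM) were lowest. Their ranges overlapped in young mice, and in aged mice Paox lay above Smox in every library. These comparisons depend on the length used. With the longest transcript in place of the union of exons, Smox stood above Paox in the mean of the 8 mice. Sat1 rose from 45.6 to 93.6 RPKM and Oaz2-ps from 21.0 to 34.0 RPKM, with Azin1 at 38.3 and Odc1 at 178 RPKM. The comparisons within aged and within young mice were made with the union of exons only and may differ with the other length.

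**Figure D3:**
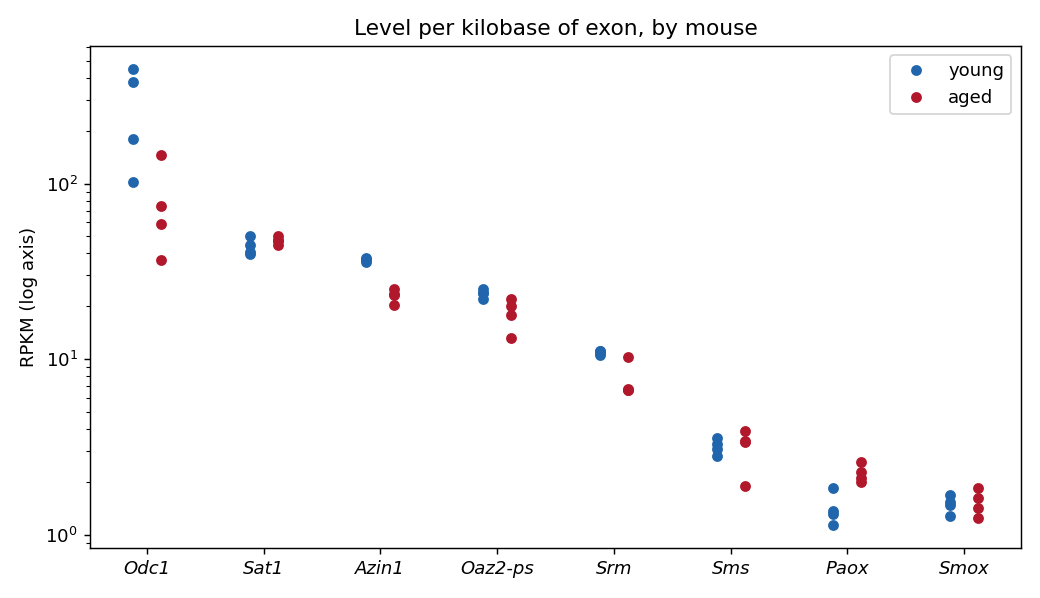
RPKM (log axis) is plotted for each gene, with a point for each of the 4 young (blue) and 4 aged (red) mice. Odc1 spans 36.7 to 450 RPKM, while Azin1 holds to 20.4 to 37.6 RPKM and Paox and Smox lie lowest.

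The labelled tissue was checked with markers. Each of the 10 marker lists for nephron segments and other cells was detected, with none of its genes at 0 in all libraries, and lymphocyte markers summed to at most 3.51 CPM. Markers of the S3 segment of the proximal tubule (Slc22a7, Slc7a13, Slc5a8, Atp11a and Kap) summed to 1830 to 17678 CPM in aged and 22193 to 29641 CPM in young mice, highest among the aged in aged mouse 4, where Odc1 was also highest, and highest among the young in young mouse 4, where Odc1 was lowest. Kap made up 50.8% to 84.3% of these sums, and without it the other 4 genes summed to 900.5 to 3381 CPM in aged and 3709 to 5341 CPM in young mice. Without Kap, aged mouse 4 was again the highest of the aged, but young mouse 1 was the highest of the young. Those young sums were 5341, 4693, 3709 and 4663 CPM in young mice 1 to 4. Markers of S1 and S2 summed to 8962 CPM in aged mouse 1 and to at least 19212 CPM in every other library, and aged mouse 1, lowest in both Odc1 and Azin1, stood apart on the first principal component. Markers of the distal convoluted tubule summed to 1223 to 1412 CPM in aged and 679 to 1220 CPM in young mice. The part of these lists in the values above was not tested, and in whole cortex fewer cells of a type and less RNA per cell cannot be told apart. Without aged mouse 1 the log2 fold change was -0.62 for Azin1, which was still called, and -1.58 for Odc1.

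The genes whose values ran closest to a member over the 8 mice were found by the root-mean-square difference of log2 CPM, each centred on its own mean. The 5 nearest to Azin1 were Ncs1, Hoxa9, 0610010O12Rik, Erp29 and Ddr1, at 0.05 to 0.09 log2 units. Ncs1, a calcium sensor, stood at 9.43 to 11.4 CPM in aged and 15.3 to 17.1 CPM in young mice, and Erp29, a chaperone of the endoplasmic reticulum, at 44.3 to 60.6 and 79.9 to 87.2 CPM. The 5 nearest to Odc1 were Smcp, Ttbk1, B4galt5, Plcd4 and Dcst1, at 0.29 to 0.51 log2 units. These distances are larger than those for Azin1, but they were not scaled by the range of the gene itself. Centred values of Odc1 ran from -1.80 to 1.81 and those of Azin1 from -0.51 to 0.37. Smcp, the nearest to Odc1, had 0.196 CPM in aged mouse 1, near the level of 3 counts. B4galt5, a glycosyltransferase, stood at 44.3 to 181 CPM in aged and 271 to 437 CPM in young mice, and in aged mice it was highest in aged mouse 4, as Odc1 was. None of the 10 nearest genes was another polyamine gene. Only 8 of the 13944 genes tested were polyamine genes, so nothing is read from this.

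**Figure D4:**
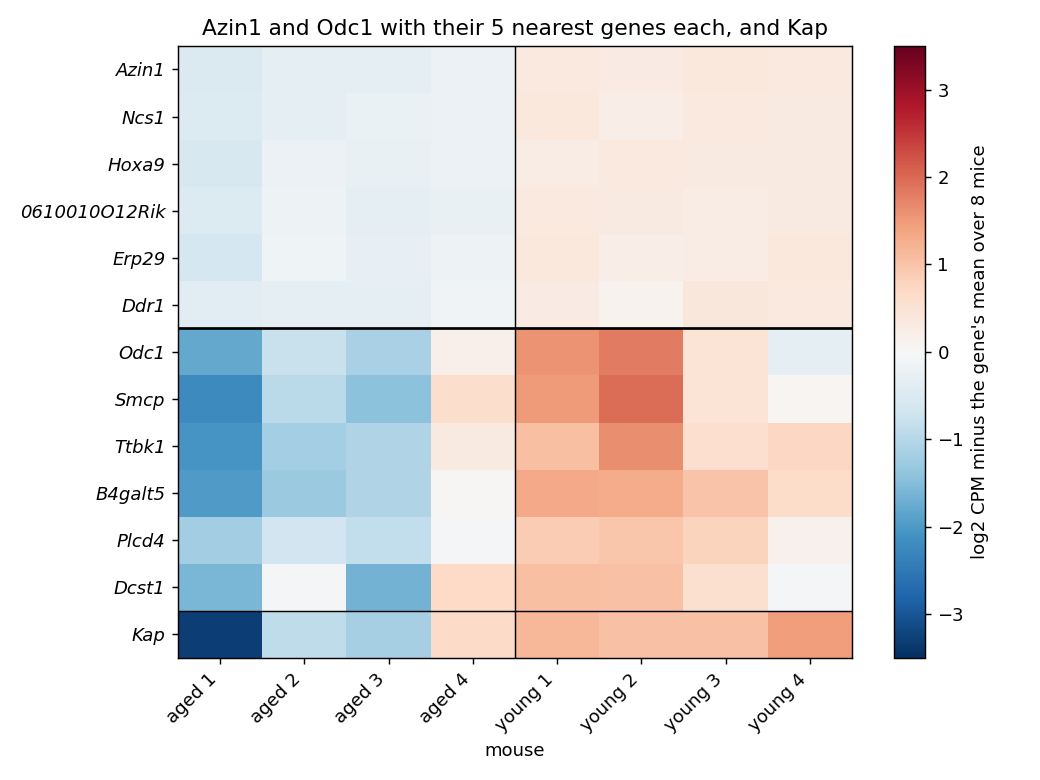
Colour gives log2 CPM minus the gene's mean over the 8 mice, with mice in columns and Azin1, Odc1, the 5 genes nearest to each, and Kap in rows. The neighbours were chosen for following the gene they stand under. Azin1 runs from -0.51 in aged mouse 1 to 0.37 in young mouse 3, and Odc1 from -1.804 in aged mouse 1 to 1.81 in young mouse 2.

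The rest of the pathway was read from a list of 49 genes grouped by function, of which 42 were tested. In edgeR, 2 of them (4.76%) passed the test with adjustment over all genes, both higher in aged mice, beside 2.06% of all genes. The median log2 fold change of the 42 was 0.06. Myc, a transcription factor that drives Odc1, stood at 28.8, 12.3, 14.5 and 20.6 CPM in aged mice 1 to 4 and at 6.41, 4.97, 7.34 and 8.51 CPM in young mice 1 to 4. All 4 aged mice lay above all young mice, and Myc rose by a log2 fold change of 1.49 ± 0.28 (SE, adjusted p = 0.0385 in edgeR). Eif5a2, one of the proteins that carry hypusine, an amino acid made from spermidine, stood at 21.6, 15.5, 19.99 and 19.6 CPM in aged mice 1 to 4 and at 13.6, 11.48, 11.02 and 12.8 CPM in young mice 1 to 4. It was higher in all 4 aged mice, by 0.65 ± 0.13 (SE, adjusted p = 0.0390 in edgeR). Both calls were lost without aged mouse 3 and without any 1 of the 4 young mice. Over all genes 115 were called without aged mouse 3, and 8 to 35 without a young mouse. The adjusted p ranged from 4.02e-05 to 0.115 for Myc and from 0.000588 to 0.123 for Eif5a2 over the alternatives.

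In the hypusine group the other 3 genes did not pass. Eif5a, the main hypusine carrier, had a log2 fold change of -0.26 ± 0.09 (SE, edgeR adjusted p = 0.126), and Dohh, which completes hypusine, -0.22 ± 0.07 (SE, edgeR adjusted p = 0.113). Their values did not overlap between groups. Among 5 regulators of Odc1, Myc was the one that passed in edgeR on all 8 libraries. Kap, an androgen-responsive gene of the proximal tubule, was at 929, 4838, 4020 and 14297 CPM in aged mice 1 to 4 and 20177, 18460, 18484 and 24978 CPM in young mice 1 to 4. Its groups did not overlap, its log2 fold change was -1.77 ± 0.65 (SE, edgeR adjusted p = 0.138), and among the aged mice it was highest in aged mouse 4 and lowest in aged mouse 1, as was Odc1. Among the young mice it was highest in young mouse 4, where Odc1 was lowest. Kap passed in limma-voom with sample quality weights (-1.88, adjusted p = 0.0313) and in edgeR without aged mouse 4 (-2.65, adjusted p = 0.0255), and its adjusted p ranged from 0.0255 to 0.260 over the alternatives.

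None of the 4 tested genes of S-adenosylmethionine supply passed in edgeR on all 8 libraries. Mat2a, which makes S-adenosylmethionine outside the liver, came nearest, at 299, 249, 322 and 444 CPM in aged mice 1 to 4 and 553, 669, 482 and 530 CPM in young mice 1 to 4. The groups did not overlap, and its log2 fold change was -0.77 ± 0.18 (SE, edgeR adjusted p = 0.0564). It passed in DESeq2 (adjusted p = 0.00175), in limma-voom with sample quality weights (0.0343), with total counts as the scaling (0.0499) and without aged mouse 4 (0.0107), and over all alternatives its adjusted p ranged up to 0.144. Its partner Mat2b had -0.02 ± 0.08 (SE, edgeR adjusted p = 0.902). In methionine salvage, which returns the by-product of Srm and Sms, 0 of 5 passed in edgeR, with -0.18 ± 0.09 for Mtap and -0.17 ± 0.09 for Adi1 (SE, edgeR adjusted p = 0.257 and 0.270). In ornithine and arginine supply 0 of 7 tested passed in edgeR, with 0.26 ± 0.63 for Gatm and -0.13 ± 0.17 for Ass1 (SE, edgeR adjusted p = 0.817 and 0.646). Gatm was 17.2-fold apart among aged mice, lowest in aged mouse 1.

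Polyamine transport had 0 of 10 tested genes past the threshold in edgeR on all 8 libraries. Atp13a3, a polyamine transporter, was at 318 ± 26.5 CPM in aged and 404 ± 17.8 CPM in young mice (SD, n = 4 each), with a log2 fold change of -0.34 ± 0.09 (SE, edgeR adjusted p = 0.0681). Chosen after their values were seen, Slc22a2 had -1.02 ± 0.29 (SE, edgeR adjusted p = 0.0804). It passed in DESeq2 (adjusted p = 0.00681), in limma-voom with sample quality weights (0.0230) and without aged mouse 4 (0.0100). Atp13a4 had 25, 16, 16 and 5 counts in aged mice 1 to 4 and 0 in all young mice. It did not pass the filter on low counts, and it was called in edgeR with no filter and without aged mouse 4. In catabolism beyond the members 0 of 6 tested genes passed in edgeR on all 8 libraries (Maoa passed without aged mouse 4, adjusted p = 0.0416), with 0.08 ± 0.10 for Aldh9a1 and -0.06 ± 0.13 for Abat (SE, edgeR adjusted p = 0.602 and 0.793). Azin2, the other antizyme inhibitor, had 0.39 ± 0.20 (SE, edgeR adjusted p = 0.243). Arg1, Otc, Mat1a, Oaz3, Amd2 and Satl1 were also too low to be tested.

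**Figure D5:**
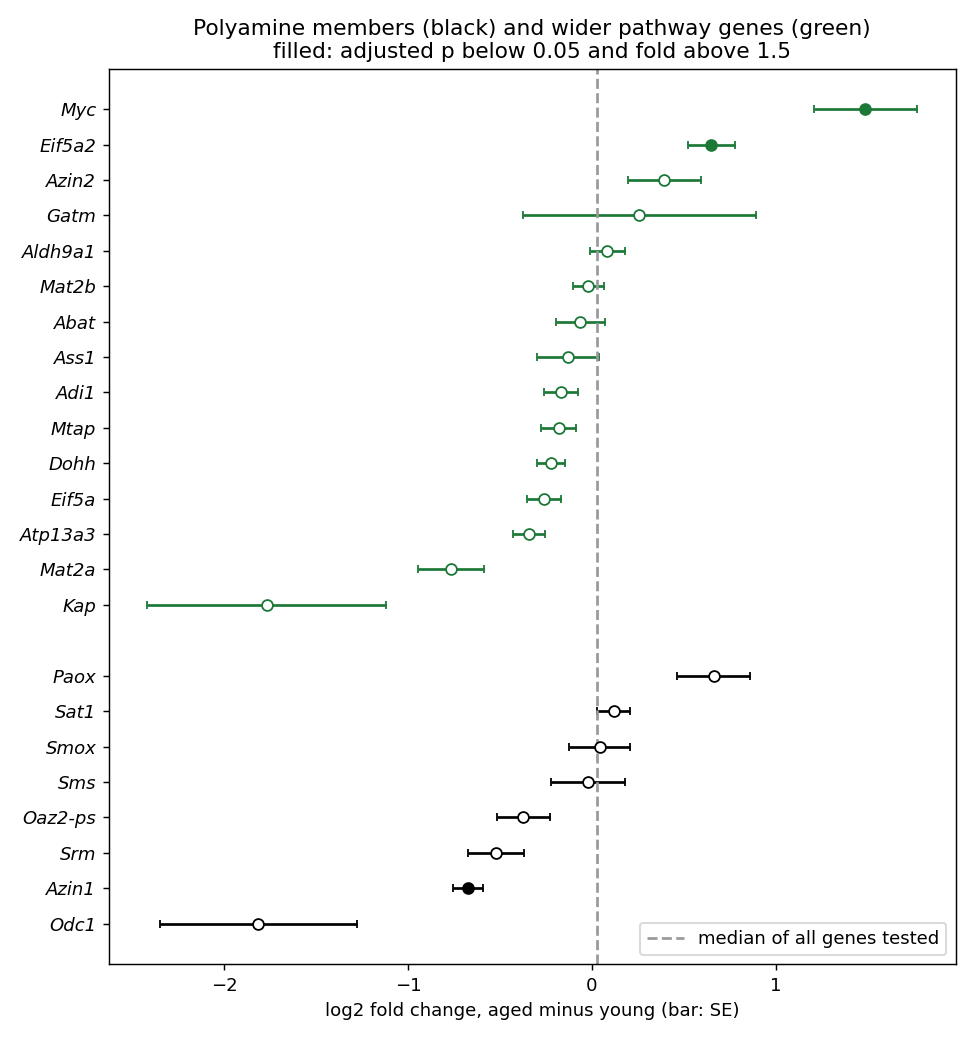
Points give the log2 fold change, aged minus young, with bars of ± SE for the 8 polyamine genes tested (black) and named genes of the wider list (green), filled where called, and the dashed line marks the median of all genes (0.03). Azin1 (-0.67) has a short bar and Odc1 (-1.81) a long one, and Myc (1.49) and Eif5a2 (0.65) lie to the right.

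Promoter windows of 300 nt from RefSeq (GRCm38.p6) were found for 8 of the 10 genes, all but Azin1 and Srm. The motif CACGTG, the E-box that Myc binds, read on both strands, was present in 1 of the 2 windows of Sms and in none for the other 7 genes, beside 7.15% of 32851 windows. The motif AGAACA, a steroid hormone response half-site, was present for Oaz2 and Sat1, beside 19.0% of windows. Sites outside these windows were not searched, so a motif absent here may still lie elsewhere in or near a gene, also for Odc1.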

How the data were processed

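The authors extracted total RNA from kidney cortex, depleted ribosomal RNA, made stranded libraries, aligned the reads to mm9 with TopHat2 and counted read pairs per RefSeq gene by strand with HTSeq. The submitters' processing notes also name CASAVA 1.8.2 and SAMtools, and other versions are not given in the sources used here. The deposited values are raw counts per gene. One table per mouse was used, and the 8 columns of a joint table were not used. Lines that name no gene were left out of library sizes. Read pairs on no gene made up 20.0% to 29.9% of a library, pairs aligned to several places 34.3% to 39.1% and ambiguous pairs at most 0.346%.

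Groups came from the sample titles. Counts were fitted with edgeR 4.0.16 quasi-likelihood (TMM, filterByExpr with a minimum count of 10, no covariate, all 8 libraries) in R 4.3.3, with Benjamini-Hochberg adjustment over 13944 genes. Log2 CPM used a prior count of 2. The tests were checked on simulated data. At these depths 3 counts, the floor, came to 0.151 to 0.202 CPM, a limit from counting alone. Duplicate libraries were looked for and not found (smallest chi-square per gene 8.91 over 14604 genes). Alternatives were DESeq2 size factors, total counts, no filter, DESeq2 1.42.0, limma-voom with sample quality weights (limma 3.58.1), a block for the replicate number, leaving out each mouse, and the adjusted p alone. The longest transcript replaced the union of exons, and 200 nearest genes replaced 500.

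The members and lists were chosen with earlier results of these data known. The named genes are the members, genes of the wider list that passed, the 2 highest by mean CPM in each group of that list, Kap, and the 5 genes nearest to Azin1 and to Odc1. Some genes of the wider list that this rule names are not reported here. The balance was planned with Oaz1. Oaz2-ps took its place after the data were seen, because Oaz1 had almost no counts. Lengths and coordinates came from GENCODE on mm9, where 13655 genes received a length. Copies were sought by BLAST 2.17.0, keeping matches of 100 nt or more with 98% identity. Protein sequences were not used here, and coding nucleotides were compared instead.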

Additional observations from a re-analysis of the deposited data

Results flagged for a closer look

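Among 76 groups of 4 mice examined (the polyamine genes tested, their ratios, the named genes of the wider list and the marker lists), 5 held a mouse whose gap to its nearest neighbour exceeded Dixon's critical share of the group's range, where chance alone gives about 3.80. Srm in aged mouse 3, at 16.5 CPM, was the highest of its group with a gap of 0.974 of the range. Azin2 in young mouse 3, at 6.46 CPM, was the highest with a gap of 0.931. Dohh in young mouse 3, at 32.8 CPM, was the highest with a gap of 0.864. Eif5a in aged mouse 1, at 221 CPM, was the lowest with a gap of 0.890. The endothelial markers in young mouse 2 summed to 375 CPM, the highest, with a gap of 0.859.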

How the results depend on the processing

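Over all genes 287 of the 13944 tested were called. The number was 488 with total counts as the scaling (75.4% of them higher in aged mice, against 56.8%), 873 with DESeq2 and 483 with limma-voom and sample quality weights together, and 8 to 733 with a mouse left out. It was lowest without young mouse 1. Of the polyamine genes 1 was called, none with total counts, 3 with DESeq2 (Azin1, Odc1 and Paox), beside 873 of all genes, and 0 to 2 with a mouse left out. Of the wider list 2 were called, 4 with DESeq2, 5 with limma-voom and those weights (beside 483 of all genes) and 0 to 7 with a mouse left out. The most were called without aged mouse 4, where 733 of all genes were called. Nothing about the polyamine genes or the list is read from these changes in number. The log2 fold change of Azin1 ranged from -0.71 to -0.56, the last with total counts, over refits of the same 8 libraries that chose it, which add no support. Its level was 29.9 RPKM over the 8 mice and 38.3 RPKM with the longest transcript.

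With the replicate number as a block, 130 genes were called, 112 of them shared, with 1 of the polyamine genes and 1 of the wider list (Myc). Same-numbered mice had correlations of deviations of 0.21, 0.04, 0.20 and -0.03, which is over 0.1 in pairs 1 and 3 only. The main fit took no block, and these values do not settle whether such mice share more than a number. Aged mice 1, 2 and 3 correlated best with the young mouse of their own number, and aged mouse 4 with young mouse 2. Low counts limit Paox, on 34 to 93 counts. Amd1 and Oaz1 had 0 to 2 counts, and the part of depth and of their copies was not tested.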
